A study of Mus musculus with 9 samples.

Results

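The genes described here are 9 genes that interferons induce or that serve antigen presentation, namely Gbp2, Gbp3, Irf1, Irf7, Isg15, Ifitm1, Ifitm3, Bst2 and B2m. They were measured by 11 transcript clusters, sets of array probes for 1 gene or a few near-identical genes, out of 23410 clusters with an annotated gene. Members were selected on their symbols, in an annotation that lists each cluster's genes. The choice was not blind to the readout, because the cluster shared by Gbp2 and Gbp2b was already known to lead the comparison of mESCWM with mESCFB, and the differences of the members are therefore given as a description. The Gbp2 cluster is shared with Gbp2b and the Isg15 cluster with the pseudogene Gm9706, so their values are those of both genes together. Irf1 and Ifitm1 had 2 clusters each.

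Transcript levels were compared in 9 mouse embryonic stem cell (mESC) lines of the C57BL/6 strain, all labelled female, with 1 array per line and 3 lines per group. The mESCWM lines (WM1, WM2 and WM3) were started from blastocysts conceived by in vitro fertilization (IVF) and grown in Whitten's medium at 20% O2. The mESCKAA lines (KAA1, KAA2 and KAA3) were started from IVF blastocysts grown in KSOM medium with amino acids at 5% O2. The mESCFB lines (FB1, FB2 and FB3), titled control, were started from blastocysts flushed after natural mating of superovulated females. All lines were derived on CF-1 mouse embryonic fibroblast feeders in serum with LIF and kinase inhibitors, were moved to gelatin after the early passages and were collected at the eighth passage. The comparison asks whether conception and culture of the embryo left a trace in the lines derived from it. The mESCFB group differs from the others in both fertilization and culture, which cannot be told apart. Medium and oxygen differ together between mESCWM and mESCKAA, and cannot be told apart either. Each line is a single derivation.

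Interferons are secreted proteins that signal through JAK kinases and STAT factors. Type I interferons activate a complex of STATs and Irf9 that binds interferon-stimulated response elements (ISRE), and interferon gamma activates STAT dimers that bind gamma-activated sites (GAS). The genes switched on encode antiviral proteins and the machinery that loads peptides onto MHC class I molecules, of which B2m is the invariant chain. Pluripotent cells are known for a weak response to interferon, while mouse embryonic stem cells express some of the induced genes, such as the Ifitm genes, without it.

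RMA, the method the authors used, gives log2 levels, so that a difference of 1 is a doubling. As a guide to background, 1035 olfactory receptor clusters, whose genes are mostly silent outside the nose, had a 95th percentile of 3.63 in mean level. Of the 16 embryonic stem cell markers, 16 were above this guide, and of 9 immune cell markers 4 were. Array medians of the tested clusters ran from 4.64 to 4.70. Eif2s3y, a gene of the Y chromosome, was at 5.19 in WM3, 3.72 in KAA2 and 4.78 in FB1, against 1.77 to 2.20 in the other 6 lines, and Uty was at 4.42 in WM3, 3.099 in KAA2 and 2.63 in FB1. Both values of Uty in KAA2 and FB1 are under the background guide. Kdm5d, another Y-linked gene, was between 1.96 and 2.46 in all 9 lines and highest in WM2, and Xist was at 2.97 in WM3, 2.57 in KAA2 and 2.53 in FB1, against 2.73 to 3.95 in the other lines. By Eif2s3y these 3 lines go against the label female, and differences of the members are also given without them where they moved.

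Promoter windows from RefSeq (GRCm38.p6, 250 bases before to 50 after the transcript start) were searched for the ISRE core GAAANNGAA and the GAS motif TTCNNNGAA, on both strands. The ISRE core was present in 8.56% of all 32851 windows and GAS in 8.30%. The members' stretches are shown because such elements are the route by which interferon signals reach genes, with matches in capitals and the coding strand 5′ to 3′. Overlapping matches make 1 longer run of capitals. Gbp2 (chr3:142620565-142620653, plus strand) held 1 ISRE core, on the opposite strand, starting at -58 from the transcript start. Isg15 (chr4:156200836-156200936, minus strand) held 3 that follow each other at -78, -72 and -66. Bst2 (chr8:71537548-71537648, minus strand) held 2, at -130 and -124, with a GAS match at -136 that overlaps the first of them. B2m (chr2:122147508-122147596, plus strand) held 1 at -139, and Irf1 (chr11:53769884-53769972, plus strand) held a GAS match at -90 in 1 of its 2 windows.
Gbp2: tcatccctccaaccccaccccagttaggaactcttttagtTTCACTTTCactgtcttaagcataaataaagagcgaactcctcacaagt
Isg15: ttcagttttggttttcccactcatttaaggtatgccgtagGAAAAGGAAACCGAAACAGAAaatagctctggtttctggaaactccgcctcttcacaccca
Bst2: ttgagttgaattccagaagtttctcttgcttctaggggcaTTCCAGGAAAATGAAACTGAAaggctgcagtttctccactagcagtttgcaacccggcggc
B2m: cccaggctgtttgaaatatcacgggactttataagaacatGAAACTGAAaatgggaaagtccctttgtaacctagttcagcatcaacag
Irf1: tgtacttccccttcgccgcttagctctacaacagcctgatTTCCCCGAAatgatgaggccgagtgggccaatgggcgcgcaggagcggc

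Gbp3 held 2 ISRE cores, at -44 and -38, in 1 of its 2 windows, and Gbp2b, which shares the Gbp2 cluster, held 1 at -136. Ifitm3 held 2 ISRE cores and 1 GAS match, all just after the transcript start. The windows of Irf7 and Ifitm1 held neither run of letters. A match is a description of these letters and not a measured binding site.

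**Figure D1:**
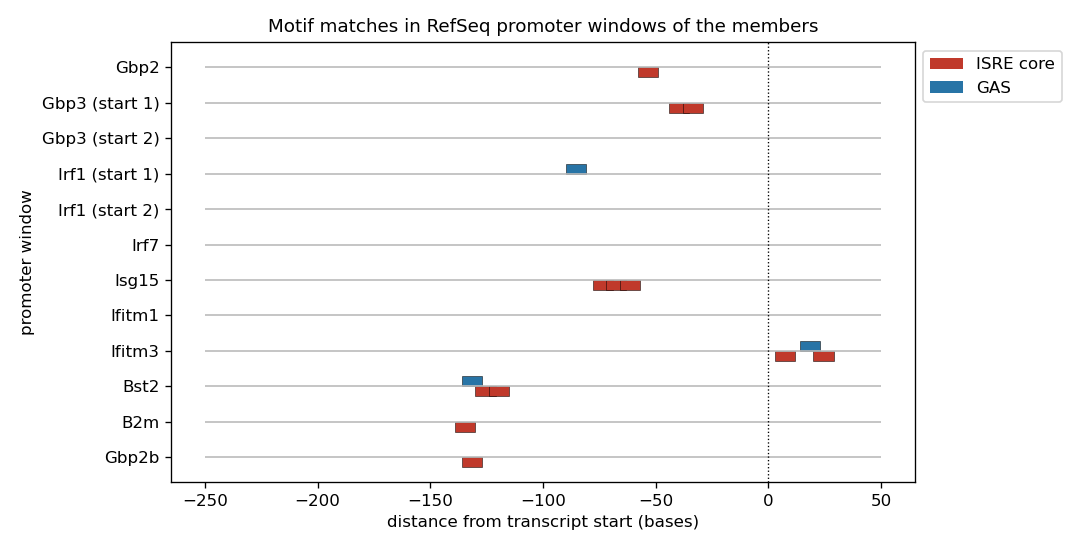
Position of each match in the members' promoter windows, as distance from the transcript start in bases (x axis), with 1 line per window (y axis), for the ISRE core (red) and GAS (blue). The 3 matches of Isg15 lie between -78 and -58, and those of Ifitm3 lie after the start.

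Gbp2, a guanylate binding protein that interferon gamma strongly induces and that acts against intracellular pathogens, varied most of the 11 clusters over the 9 lines. A separate cluster of Gbp2b alone was between 2.16 and 2.63 in all 9 lines, under the background guide. The cluster shared by Gbp2 and Gbp2b was at 7.94, 7.49 and 6.38 in WM1, WM2 and WM3. It was at 5.11, 6.97 and 6.32 in KAA1, KAA2 and KAA3 and at 5.80, 6.17 and 5.92 in FB1, FB2 and FB3. All mESCWM lines were above all mESCFB lines, WM3 by a narrow margin, while the mESCKAA lines spanned the range from below the lowest mESCFB line to above WM3. The means were 7.27 ± 0.80 in mESCWM, 6.13 ± 0.94 in mESCKAA and 5.96 ± 0.19 in mESCFB (SD, n = 3 lines each). The log2 difference was 1.31 between mESCWM and mESCFB (standard error 0.50, 95% interval 0.18 to 2.44), or 2.48-fold, and 1.14 between mESCWM and mESCKAA (interval 0.01 to 2.27). Neither passed limma, the linear model fitted over all 23410 clusters (adjusted p = 0.819 and 0.771). Between mESCKAA and mESCFB the difference was 0.17 (interval -0.96 to 1.30), less than the spread of the mESCKAA lines.

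The difference from mESCFB is the value for which this cluster was singled out. By the rank product, a test on the ranks of all pairwise differences that the study's methods name, it ranked 1 of 23410 among clusters higher in mESCWM, with a percentage of false positives (pfp) of 0.01. That pfp was 0.055 without FB3, 0.495 without WM1 and 0.303 without WM2, and 0.0735 with all clusters of the arrays, none of them under 0.05. Without WM1 the log2 difference from mESCFB was 0.97 and without WM3 it was 1.75. Without the 3 lines with Y-linked signal (WM3, KAA2 and FB1) it was 1.67, and that between mESCWM and mESCKAA was 2.00, while that between mESCKAA and mESCFB was -0.33 in place of 0.17. Leaving out single lines gave -0.25 to 0.68 for the last. In these comparisons of cell populations, a change in every cell and a change in the share of cells that express a gene cannot be told apart.

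**Figure D2:**
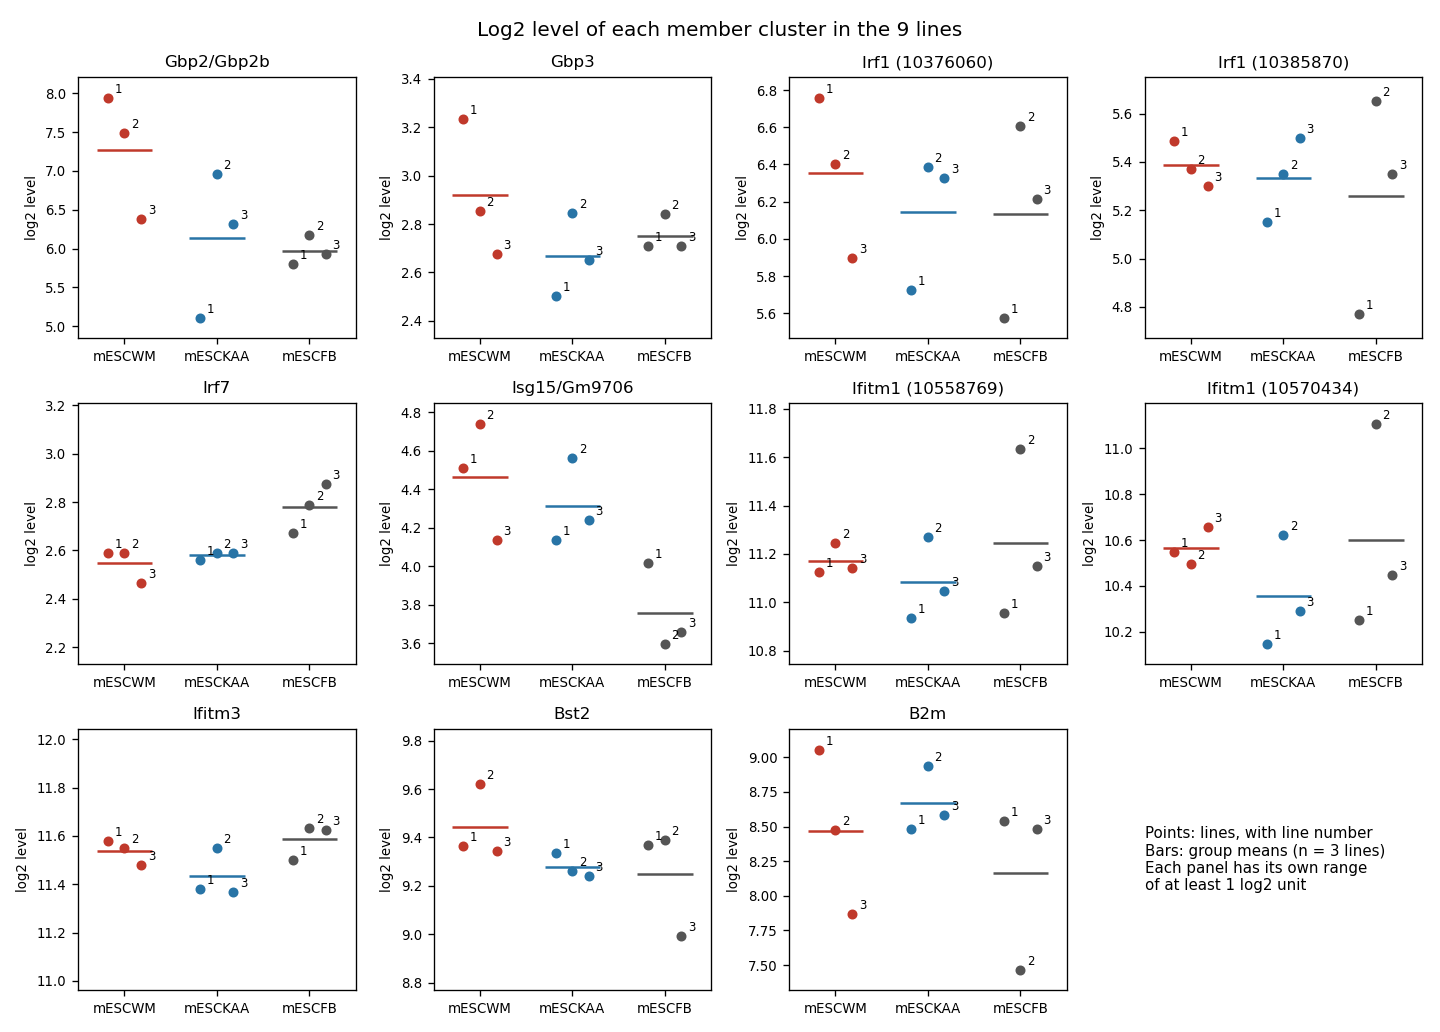
Log2 level (y axis, own range per panel) of each of the 11 member clusters in mESCWM, mESCKAA and mESCFB (x axis). Points are lines with their number and bars are group means of 3 lines. For Gbp2/Gbp2b the mESCWM lines lie between 6.38 and 7.94, above the mESCFB lines, and for Isg15/Gm9706 the mESCWM and mESCKAA lines lie above the mESCFB lines.

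Isg15, a ubiquitin-like protein that is attached to other proteins after interferon treatment, was the other member whose mESCWM lines all lay above the mESCFB lines. It was at 4.51, 4.74 and 4.14 in WM1, WM2 and WM3, at 4.14, 4.56 and 4.24 in KAA1, KAA2 and KAA3, and at 4.02, 3.60 and 3.66 in FB1, FB2 and FB3. Both IVF groups were thus above mESCFB in every line, and they overlapped each other. The log2 difference was 0.71 between mESCWM and mESCFB (standard error 0.18, 95% interval 0.29 to 1.12) and 0.55 between mESCKAA and mESCFB (standard error 0.18, interval 0.14 to 0.97). Neither passed limma (adjusted p = 0.771 and 0.918) or the rank product (pfp 0.144 and 0.392). Between mESCWM and mESCKAA the difference was 0.15 (interval -0.27 to 0.57). FB2 and FB3 were near or at the background guide of 3.63. Without WM3, KAA2 and FB1 the difference between mESCWM and mESCFB was 1.00 (adjusted p = 0.290 by limma) and that between mESCWM and mESCKAA was 0.44. Of 5 genes of ISG15 conjugation and its reversal, among them Ube2l6, Herc6 and Usp18, 4 lay above 0 between mESCWM and mESCFB, and 3 of the 5 were at or below the guide.

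B2m, which every MHC class I molecule needs to reach the cell surface, was at 9.05, 8.47 and 7.87 in WM1, WM2 and WM3, at 8.48, 8.93 and 8.59 in KAA1, KAA2 and KAA3, and at 8.54, 7.47 and 8.48 in FB1, FB2 and FB3. The groups overlapped, and the lowest level belonged to FB2. The log2 difference was 0.30 (standard error 0.35) between mESCWM and mESCFB, 0.50 (standard error 0.35) between mESCKAA and mESCFB and -0.20 (standard error 0.35) between mESCWM and mESCKAA. The interval of the last, -1.003 to 0.597, allows a doubling in mESCKAA. These differences depend on single lines. Leaving out 1 line gave -0.05 to 0.60 between mESCWM and mESCFB (the lowest without FB2), 0.15 to 0.69 between mESCKAA and mESCFB and -0.50 to 0.10 between mESCWM and mESCKAA, and without WM3, KAA2 and FB1 they were 0.79, 0.56 and 0.23.

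The transcription factors Irf1 and Irf7 are induced by interferon and in turn activate interferon and its target genes. The Irf1 cluster built on RefSeq transcripts was at 6.76, 6.40 and 5.90 in WM1, WM2 and WM3, at 5.72, 6.39 and 6.33 in KAA1, KAA2 and KAA3, and at 5.58, 6.61 and 6.21 in FB1, FB2 and FB3. Each group held high and low lines, and its log2 differences were 0.22, 0.01 and 0.21 between mESCWM and mESCFB, mESCKAA and mESCFB, and mESCWM and mESCKAA. The first ran from -0.06 to 0.46 with 1 line left out. The other Irf1 cluster ran from 4.77 in FB1 to 5.65 in FB2 and overlapped between groups as well. Irf7 was at 2.59, 2.59 and 2.46 in the mESCWM lines, 2.56, 2.59 and 2.59 in the mESCKAA lines and 2.67, 2.79 and 2.87 in the mESCFB lines. It lay lower in both IVF groups than in every mESCFB line (log2 differences -0.23 and -0.20), but all 9 values were under the background guide and 4 were identical, so that they give no order of expression. Gbp3, a guanylate binding protein encoded near Gbp2, was also under the guide, at 3.23, 2.85 and 2.67 in mESCWM, 2.501, 2.85 and 2.65 in mESCKAA and 2.71, 2.84 and 2.71 in mESCFB. Its log2 difference between mESCWM and mESCKAA was 0.25, and 0.47 without WM3, KAA2 and FB1.

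The membrane proteins Ifitm1, Ifitm3 and Bst2 block the entry or the release of viruses, and none of their differences passed limma. Ifitm3 was at 11.58, 11.55 and 11.48 in mESCWM, 11.38, 11.55 and 11.37 in mESCKAA and 11.50, 11.63 and 11.62 in mESCFB. The intervals of its log2 differences lay within -0.33 and 0.28 in all 3 comparisons. Without WM3, KAA2 and FB1 the difference between mESCKAA and mESCFB was -0.25 for Ifitm3, in place of -0.15, and -0.40 and -0.56 for the Ifitm1 clusters, in place of -0.16 and -0.25. That between mESCWM and mESCKAA was then 0.19 for Ifitm3, in place of 0.10. The first Ifitm1 cluster was between 10.93 in KAA1 and 11.63 in FB2 and the other between 10.15 in KAA1 and 11.11 in FB2. The annotation lists the same transcripts for both, and FB2 was the highest line in each. Between mESCKAA and mESCFB the intervals of the 2 Ifitm1 clusters were wider, -0.54 to 0.21 and -0.73 to 0.24. Bst2 (tetherin) was at 9.36, 9.62 and 9.34 in mESCWM, 9.34, 9.26 and 9.24 in mESCKAA and 9.37, 9.39 and 8.99 in mESCFB. All its mESCWM lines were above the mESCKAA lines, by a mean of 0.16 (interval -0.12 to 0.45), while the mESCFB lines overlapped both.

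**Figure D3:**
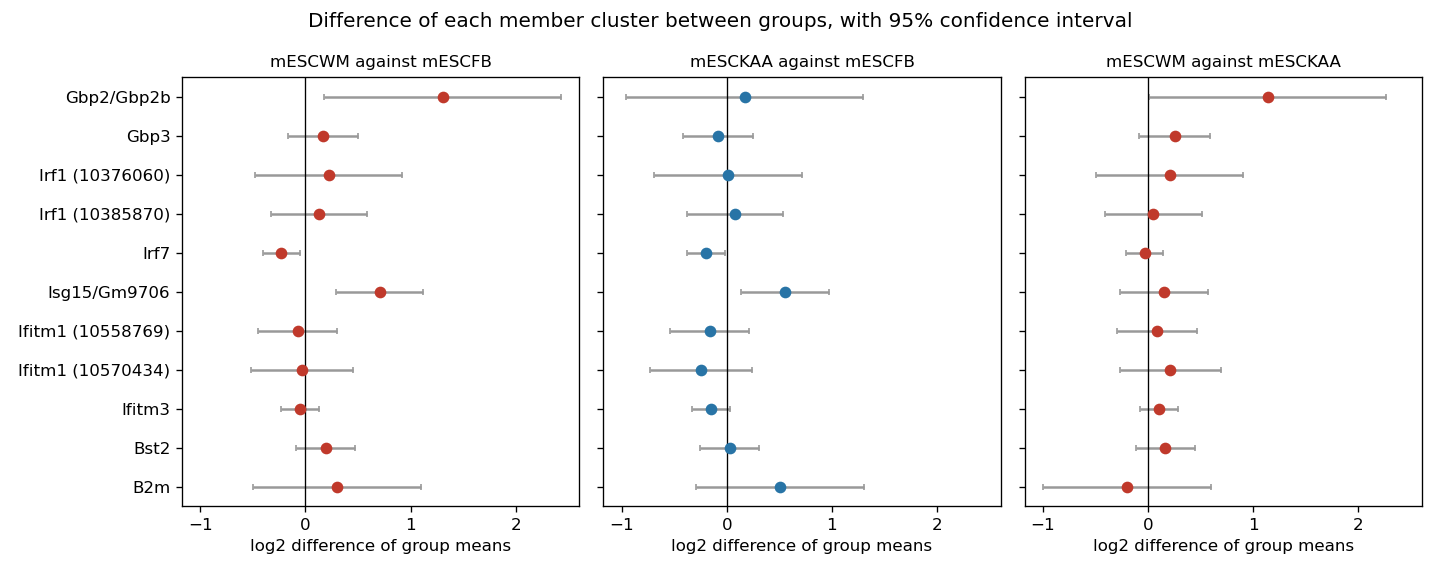
Log2 difference of group means (x axis) of each member cluster (y axis) in mESCWM against mESCFB, mESCKAA against mESCFB and mESCWM against mESCKAA. Bars are 95% confidence intervals from limma. Gbp2/Gbp2b stands at 1.31 and Isg15/Gm9706 at 0.71 in mESCWM against mESCFB, and most other intervals include 0.

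In mESCWM against mESCFB, 7 of 11 member clusters were above 0, with a median log2 difference of 0.17 against 0.0045 over all tested clusters. By limma 0 of 11 passed an adjusted p under 0.05, where 0% of all clusters did, and 3 had an unadjusted p under 0.05 (background 5.89%). The rank product called 1, the Gbp2 cluster chosen for it (background 0.111%). The groups did not overlap in 2 that were higher (background 3.58%) and 1 that was lower (background 4.55%). In mESCKAA against mESCFB, 6 of 11 were above 0 with a median of 0.013 (all clusters 0.0067). Limma passed 0 (background 0%), 2 had an unadjusted p under 0.05 (background 4.81%), the rank product called 0 (background 0.111%), and 1 cluster was apart and higher (background 4.38%) and 1 apart and lower (background 3.70%). In mESCWM against mESCKAA, 9 of 11 were above 0 with a median of 0.15 (all clusters -0.0068). Limma passed 0 (background 0%), 1 had an unadjusted p under 0.05 (background 6.29%), the rank product called 1 (background 0.278%), and 1 was apart and higher (background 4.03%) and 0 apart and lower (background 4.63%). The comparisons share lines, so their counts are not separate evidence, and nothing is read from counts over members chosen with these results known.

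Over the 9 lines, the members did not follow a single pattern. Of 55 pairs of clusters, 3 had an exact permutation p under 0.05 after adjustment over the pairs. Of these, 2 were the pairs of clusters of the same gene, Ifitm1 (Pearson's r = 0.95) and Irf1 (r = 0.87). The third was Gbp2 with Gbp3 (r = 0.87, exact permutation p = 0.0014, adjusted p = 0.0257; Spearman's rho = 0.74, exact permutation p = 0.026, adjusted p = 0.287). Without KAA1 and WM1, the lines farthest from the median of Gbp2, r was 0.63, so the relation rests in part on these lines, and Gbp3 is near background. With quantile normalization and with median centring the pair of Gbp2 and Gbp3 no longer passed (r = 0.79 and 0.84, exact permutation, adjusted p = 0.119 and 0.0547), while the Irf1 and Ifitm1 pairs did. With group means removed, r was 0.88 but the pair did not pass either (exact permutation within groups, p = 0.0278, adjusted p = 0.313). Gbp2 had an r of 0.74 with the RefSeq cluster of Irf1 and of 0.69 with Isg15 (exact permutation p = 0.0243 and 0.0407, adjusted p = 0.248 for both), and of -0.24 with Irf7. B2m had an r of -0.56 with the first Ifitm1 cluster, FB2 being the lowest line in B2m and the highest in Ifitm1 (exact permutation p = 0.122, adjusted p = 0.368; Spearman's rho = -0.34, exact permutation p = 0.365). Without FB2 and KAA1 r was 0.12.

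**Figure D4:**
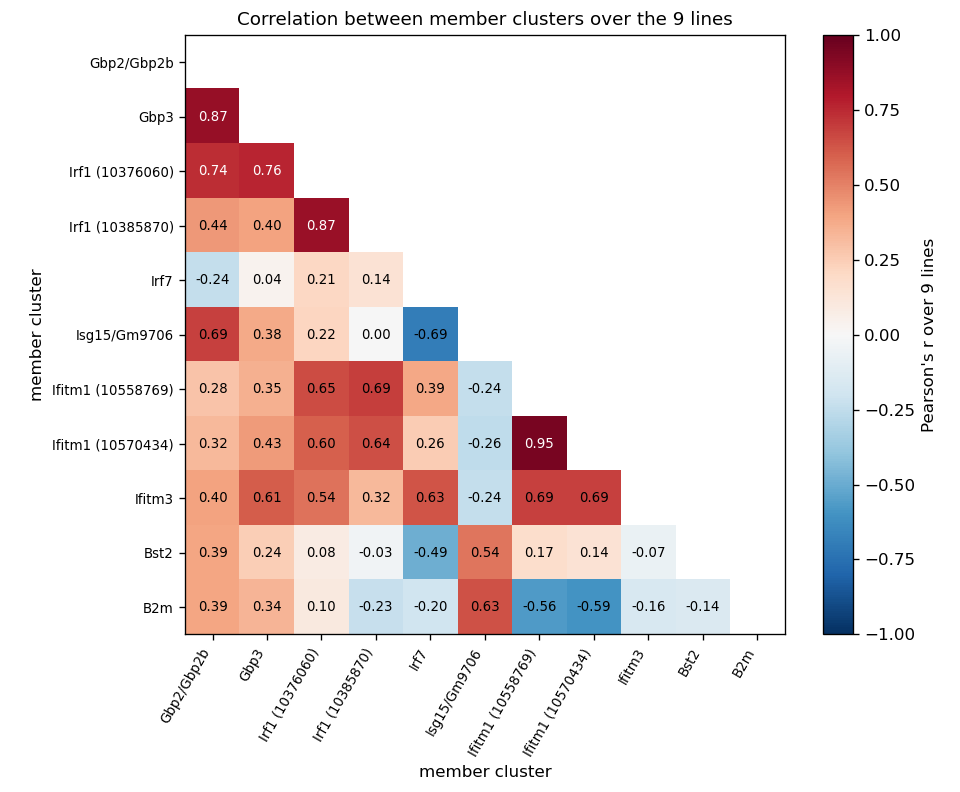
Pearson's r over the 9 lines between each pair of member clusters (both axes), from -1 (blue) to 1 (red). The pairs of Ifitm1 (0.95) and Irf1 (0.87) clusters and Gbp2/Gbp2b with Gbp3 (0.87) stand highest.

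Among 10924 clusters of 1 gene at or above the median level, the most like Gbp2 over the 9 lines was Psme1, a subunit of the interferon-induced activator of the proteasome (r = 0.97), where the 99th percentile of all r was 0.83. Psme1 was at 9.53, 9.43 and 9.07 in mESCWM, 8.84, 9.31 and 9.09 in mESCKAA and 8.86, 9.11 and 8.91 in mESCFB. The next were Trim67 (r = 0.97) and Rras, a small GTPase (r = 0.96). In all 3, as in Gbp2, WM1 and WM2 were the highest lines, KAA2 came next and KAA1 was the lowest. For Isg15 the most like was Tecr, an enzyme of fatty acid elongation (r = 0.94), and for B2m it was Litaf (r = 0.96). These likenesses were picked as the highest of many and are a description.

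Class I presentation had 25 measured clusters besides B2m, 23 of them above the background guide and 6 shared by several genes. Between mESCWM and mESCFB, 22 of 25 lay above 0, with a median log2 difference of 0.18, none passed limma or the rank product, 2 (background 5.89%) had an unadjusted p under 0.05 and 1 had groups that did not overlap, with mESCWM higher (background 3.58%). The shares with an unadjusted p under 0.05 and with groups apart are near those of all clusters. The median over all tested clusters was 0.0045, and the list was not tested as a set. Psmb8, a catalytic subunit of the immunoproteasome, was at 5.99, 5.84 and 4.99 in mESCWM, 3.99, 5.95 and 5.28 in mESCKAA and 4.76, 5.09 and 4.99 in mESCFB. Tapbp (tapasin), which holds class I molecules at the peptide transporter, was at 7.12, 6.94 and 5.75 in mESCWM, 6.05, 6.56 and 6.18 in mESCKAA and 5.90, 6.17 and 6.21 in mESCFB. Psme2, the partner of Psme1, was at 8.91, 8.90 and 8.50 in mESCWM, 8.01, 8.84 and 8.38 in mESCKAA and 8.01, 8.62 and 8.29 in mESCFB. In each of these WM1 and WM2 were high, and WM3 lay among the lines of the other groups, or below them for Tapbp. The log2 differences from mESCFB were 0.66, 0.51 and 0.47 (standard errors 0.45, 0.32 and 0.23), which did not pass limma (adjusted p = 0.853, 0.840 and 0.819). The cluster shared by the class I heavy chain genes H2-K1 and H2-D1 was at 7.02, 7.17 and 6.58 in mESCWM, 6.64, 7.06 and 6.84 in mESCKAA and 6.75, 6.28 and 6.90 in mESCFB. It was lowest in FB2, as B2m was. Between mESCKAA and mESCFB, and between mESCWM and mESCKAA, 17 of 25 lay above 0, with medians of 0.12 and 0.10 and 0 calls by limma in each.

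**Figure D5:**
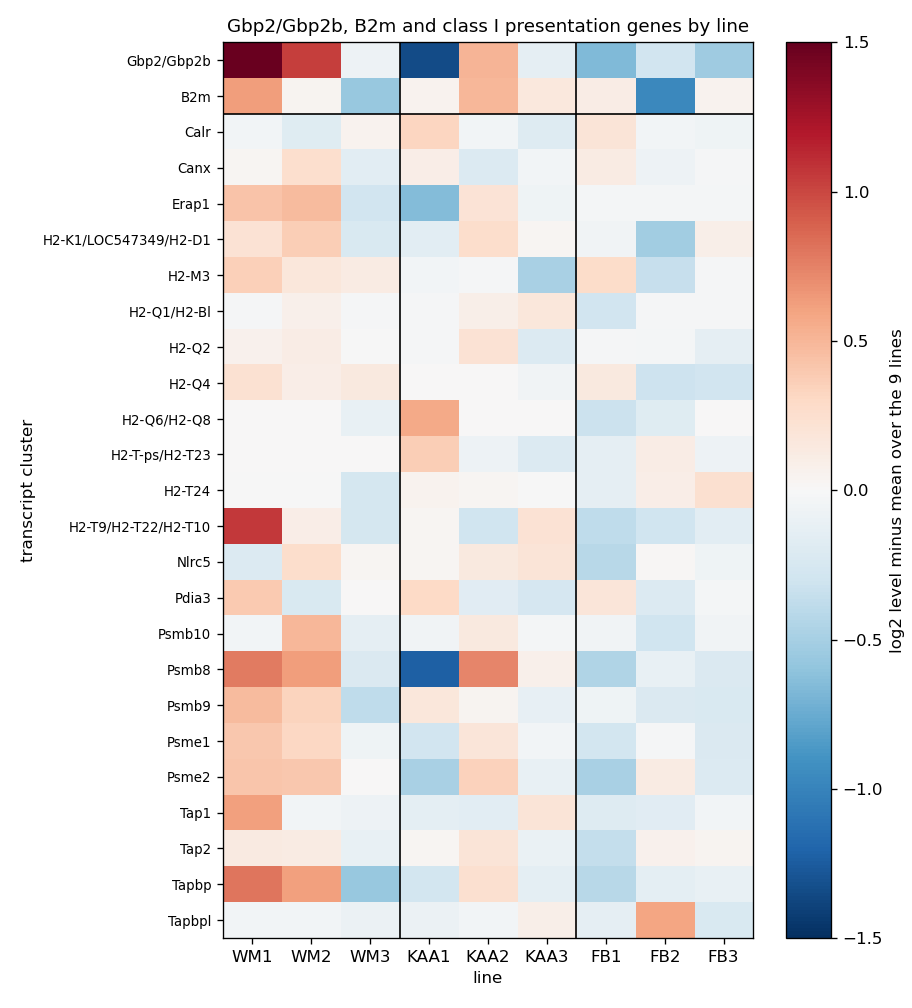
Log2 level minus the mean over the 9 lines (color, red above and blue below) of Gbp2/Gbp2b, B2m and the class I presentation clusters above the background guide (y axis) in each line (x axis, mESCWM, then mESCKAA, then mESCFB). The reddest cells of Psmb8, Psme1, Psme2 and Tapbp fall in WM1, WM2 and KAA2, as for Gbp2/Gbp2b, and B2m is bluest in FB2. Paler cells above the mean occur in other lines, as for Psme2 in FB2 and Psmb8 in KAA3.

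Among other genes of the pathway, the share above the background guide differed by family. Of the 8 other guanylate binding protein clusters 7 were at or below the background guide, and 0 were called in any comparison by limma or the rank product. The immunity-related GTPases, which interferon gamma also induces, had 6 clusters, 4 of them above the guide. Of these, 1 shared by Irgm2 and Igtp was called higher in mESCWM than in mESCKAA by the rank product (pfp = 0.0264, background 0.278%). It was at 4.57, 4.59 and 3.40 in mESCWM, 3.15, 3.51 and 2.96 in mESCKAA and 3.51, 3.51 and 3.47 in mESCFB. Its mean level, 3.6296, was barely above the guide of 3.6273, and only WM1 and WM2 were above the guide. The cluster did not pass limma (adjusted p = 0.771), and WM3 was below KAA2. Irf2, a factor of the same family as Irf1, was at 4.86, 4.29 and 3.88 in mESCWM, 3.48, 3.95 and 3.72 in mESCKAA and 3.22, 3.66 and 3.82 in mESCFB, a difference of 0.78 from mESCFB that did not pass limma (adjusted p = 0.819). Of 38 antiviral interferon-stimulated clusters 16 were at or below the guide, among them Ifit1, Ifit2, Ifit3, Mx1 and Mx2, and 21 of 38 lay above 0 between mESCWM and mESCFB, with a median of 0.04 and 0 calls by limma or the rank product. Oasl2 had the smallest limma p of that list, at 4.68, 4.94 and 4.48 in mESCWM, 4.34, 4.36 and 4.34 in mESCKAA and 4.16, 4.40 and 3.82 in mESCFB (difference from mESCFB 0.57, adjusted p = 0.808). Of 13 interferon gene clusters 8 were at or below the guide, and of 16 clusters for receptors and JAK-STAT signaling 14 were above it and 13 lay above 0 between mESCWM and mESCFB, with a median of 0.10 and 0 calls.

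Markers of the feeder fibroblasts also lay mostly above 0. Of 29 measured, 25 lay above 0 between mESCWM and mESCFB, with a median of 0.13, and 22 between mESCKAA and mESCFB, with a median of 0.16. Their summed linear levels ran from 5402 to 6374 in mESCWM, 5121 to 5701 in mESCKAA and 4464 to 5135 in mESCFB. Bgn, which encodes biglycan, was at 6.28, 6.22 and 5.23 in WM1, WM2 and WM3, against 4.93 to 5.12 in the mESCKAA lines and 4.99 to 5.03 in the mESCFB lines, so that WM1 and WM2 stood apart in it. In Gbp2 they were also the highest lines, followed by KAA2 at 6.97. Of the 29 fibroblast markers 22 were above the background guide and 7 were at or below it. Some markers of the list, such as Vim, Fn1 and Acta2, are expressed by other cells as well. Summed levels of 10 primitive endoderm markers were highest in KAA1 (1038) and FB1 (820), against 422 to 454 in mESCWM, 428 to 444 in KAA2 and KAA3 and 356 to 372 in FB2 and FB3, and 0 of 10 lay above 0 between mESCWM and mESCKAA. KAA1 and FB1 were also the lowest lines of their groups in Gbp2 and Irf1. Of 16 embryonic stem cell markers, 10 were below 0 between mESCWM and mESCFB and 13 between mESCKAA and mESCFB. The part of other cell types in the levels of the members was not tested.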

How the data were processed

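Total RNA of 9 mESC lines, 3 per group, was hybridised to Affymetrix Mouse Gene ST arrays. The deposited values are log2 levels that the authors made by RMA (affylmGUI, with Affymetrix Expression Console and R 3.1.0 in the submitters' processing notes). RMA corrects background, equalises the arrays and summarises the probes of a cluster by median polish, which can give identical values in several lines. The build of the array annotation is not given in the sources used here. Groups and line numbers came from the sample titles. Of 35556 clusters the 23410 with an annotated gene were tested, 1621 of them with several symbols. For each cluster limma (version 3.58.1, under R 4.3.3) gave the two-sided test of each difference, from 1 fit of all 9 lines with eBayes moderation and Benjamini-Hochberg adjustment over all tested clusters, and with the rank product (9 pairwise differences, 100 permutations, pfp under 0.05), written with numpy 2.4.6. Both were tested on simulated data. The number of arrays limits the precision. Correlations used exact permutation tests over the 9 lines. Named genes were every member, up to 4 genes of a list with the smallest limma p, all measured genes of the members' families and the 3 clusters most like each member. Ifit1, Ifit2, Ifit3, Mx1, Mx2, Oas1a, Phf11d, Ifi35, Ifng and Ifnb1 fall outside this rule and were picked once their values were known. The members and lists were chosen with earlier results of these data known. Alternatives were other cluster sets, quantile normalization, median centring, robust eBayes with trend, the line numbers as a block, other pfp thresholds and leaving out lines. Same-numbered lines deviated together with an r of -0.01 to 0.33, over 0.1 in 5 of 9 pairs. Lines of other numbers had an r of -0.24 to 0.13, over 0.1 in 1 of 18 pairs. No label says that the numbers pair the lines, so they were used only as an alternative.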

Additional observations from a re-analysis of the deposited data

How the results depend on the processing

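Of 330 log2 differences of single member clusters under the alternatives, 322 stayed within 1 SD of the lines within groups. With so few lines per group, leaving out 1 line cannot move a difference by more than this SD. The line numbers as a block leave each difference unchanged. The count is therefore no measure of stability under those settings. All 8 that moved further came from leaving out WM3, KAA2 and FB1 together. Of the differences called by the rank product, 0 changed sign. Differences that were not called, as for B2m and Irf1, did change sign when single lines were left out. Limma passed 0 clusters in each comparison under every other cluster set, normalization and prior that was run, and 0 to 1 cluster, no member, without single lines (1 without WM3, in mESCWM against mESCFB and against mESCKAA). Adding the line numbers as a replicate block also gave 0 calls, left the member medians at 0.17, 0.013 and 0.15 and moved the standard error of Gbp2 to 0.48. With the block, 1714 clusters had an unadjusted limma p under 0.05 in mESCWM against mESCFB, in place of 1380. The counts were 1443 in place of 1126 in mESCKAA against mESCFB, and 1876 in place of 1473 in mESCWM against mESCKAA. The lines were not taken as paired, although for 8 of 9 the best partner carried the same number.

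The median difference over the members ran from -0.059 to 0.24 between mESCWM and mESCFB, from -0.18 to 0.10 between mESCKAA and mESCFB and from 0.06 to 0.18 between mESCWM and mESCKAA when single lines were left out. Without WM3, KAA2 and FB1 together the median between mESCKAA and mESCFB was -0.25, with 2 lines per group.

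The rank product depended most on the settings. Its calls, 26, 26 and 65 in mESCWM against mESCFB, mESCKAA against mESCFB and mESCWM against mESCKAA, numbered 3, 6 and 34 at a pfp under 0.01, 58, 60 and 113 at a pfp under 0.1 and 17, 9 and 26 once clusters below the median level were dropped. When unannotated clusters were kept the second became 53 and the third 125, with 1 cluster per symbol they were 14 and 25, and without the 3 lines with Y-linked signal 42 and 40. Leaving out single lines gave 1 to 52, 0 to 69 and 24 to 65 calls. The pfp of Gbp2 was 0.005 to 0.496 for mESCWM against mESCFB and 0.005 to 0.358 for mESCWM against mESCKAA (0.0142 with all lines) when single lines were left out. When unannotated clusters were kept it was 0.0735 and 0.0675, and 0.01 and 0.0142 did not fall under the threshold of 0.01. The causes were not tested. With residuals from the group means 0 of 55 member pairs passed, against 3, but the smallest exact p there, 0.00463 over 216 arrangements, adjusts to 0.255 for a single pair, so this count says nothing about the pairs. With quantile normalization and with median centring 2 passed. Levels near background, as for Gbp3 and Irf7, limit what their differences can show.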

Other observations

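Some antiviral genes varied widely between the lines of a group. Oas1a, a synthetase of the short nucleotide chains that activate RNase L, was at 5.20, 6.23 and 4.29 in WM1, WM2 and WM3, at 4.38, 5.09 and 4.78 in KAA1, KAA2 and KAA3, and at 4.24, 5.88 and 5.17 in FB1, FB2 and FB3. Its highest lines were WM2 and FB2, and the log2 difference between mESCWM and mESCFB was 0.15 (standard error 0.52). Phf11d, a gene of a PHD finger family, was at 5.13, 6.12 and 5.07 in mESCWM, 5.58, 5.26 and 4.93 in mESCKAA and 5.42, 6.41 and 5.84 in mESCFB, again highest in FB2 and WM2. Its log2 difference was -0.45 between mESCWM and mESCFB and -0.63 between mESCKAA and mESCFB (standard error 0.33 for both), and neither passed limma (adjusted p = 0.859 and 0.918). Ifi35, an interferon-induced leucine zipper protein, was at 5.16, 5.58 and 4.49 in mESCWM, 4.75, 4.73 and 4.37 in mESCKAA and 4.59, 4.73 and 4.49 in mESCFB, with WM1 and WM2 highest and a difference of 0.47 between mESCWM and mESCFB (standard error 0.25) that did not pass limma (adjusted p = 0.819). These genes were named after their values were seen.

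The cluster shared by the nonclassical class I genes H2-T9, H2-T22 and H2-T10 was at 5.79 in WM1, against 4.48 to 4.83 in the other 2 mESCWM lines, 4.43 to 4.95 in the mESCKAA lines and 4.35 to 4.58 in the mESCFB lines. The genes of interferon gamma and interferon beta, Ifng and Ifnb1, had levels at or below the background guide in all 9 lines.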
